A study of Bombyx mori with 4 samples.

Results

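The subject is a pair of cuticle protein genes of the silkworm, Bombyx mori, named CPH45 (gene model BGIBMGA004124) and CPH43 (BGIBMGA005302), read in midgut RNA. They were chosen as abundant among the models whose best protein hit carries the word cuticle or cuticular. Earlier results of these data were known at that choice, so their levels and ranks are a description and not a finding. The pair leaves out another such model, BGIBMGA013778, which had more tags than CPH43 in all 4 libraries and is described beside it. These are 2 of the 19 such models and of the 5558 models in the table. The larvae were sampled on day 2 of their final instar, the fifth. The 4 groups were 932 heat, 932 control, HY heat and HY control. The labels call 932 heat-tolerant and HY heat-sensitive, and the heat groups were exposed to high temperature, of a degree and length that the labels do not state. A group was 1 library. No difference below therefore has a replicate check or a p-value, and each comparison is between libraries. How many larvae went into a library is not stated either.

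Cuticle proteins are structural proteins that bind to or pack between chitin fibres in the insect exoskeleton. The same kind of lining covers the foregut, the hindgut and the tracheae, whereas the midgut is bare of cuticle and is lined by the peritrophic matrix, a loose chitin and protein sheet. Silkworm cuticle proteins are sorted into families: those with the chitin-binding Rebers and Riddiford consensus (CPR, types RR-1 and RR-2), glycine-rich ones (CPG), and a group of hypothetical cuticle proteins (CPH) outside the motif families. CPH45 and CPH43 belong to the last group, for which no function is stated here. Their names are those of the best hits, with expect values of 4.63e-68 for CPH45 and 3.45e-66 for CPH43.

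Values are tags per 1000000 tags of a library (RPM) and are not divided by gene length. Library totals were 5828615 tags in 932 heat, 6139297 in 932 control, 6005744 in HY heat and 5799075 in HY control, and the listed models took 15.2%, 18.6%, 15.0% and 11.6% of them in the same order. Ratios are log2 of RPM + 1. Square brackets hold exact 95% intervals of the log2 ratio of tags per library total, without the added 1, which cover counting error only. A gene was compared where either library reached 1 RPM, and was called higher or lower from 2-fold on. The median log2 ratio of all genes compared was 0.02 for heat over control in 932, 0.34 for heat over control in HY, 0.05 for 932 over HY under control and -0.26 for 932 over HY under heat. It was -0.25 for the difference between the heat responses of 932 and HY.

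CPH45 was the gene with the lowest ratio of heat over control in HY. It read 57.3 RPM in HY heat and 1902 RPM in HY control, that is 344 and 11030 tags. In 932 it read 896 RPM in heat and 1322 RPM in control. The HY heat library thus stood far below the other 3 libraries, and HY control was the highest of the 4.

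The log2 ratio of CPH45 for heat over control in HY was -5.03 [-5.21 to -4.90], so that HY heat held 3.01% of the level in HY control. No other gene of the 2810 compared in HY had a ratio as low. Relative to the median gene the ratio was -5.37. Among the 193 genes with at least 100 RPM in 1 of the HY libraries the 5th and 95th percentiles of the ratio were -1.09 and 1.81. In 932 the ratio of CPH45 was -0.56 [-0.61 to -0.51], below 2-fold, and 619 of 2708 genes were as low or lower. CPH45 was lower after heat in both varieties, beyond counting error.

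The varieties were therefore near each other in CPH45 under control and far apart after heat. Under control the log2 ratio of 932 over HY was -0.52 [-0.57 to -0.48], and after heat it was 3.94 [3.81 to 4.13]. In the second comparison 14 of 2990 genes had a ratio as high or higher, CPH45 included. The heat response of 932 minus that of HY was 4.47 on the log2 scale, with an approximate counting interval of 4.33 to 4.66. That placed CPH45 among the 5 genes of 3214 with the greatest such difference. With each library scaled to the sum of its listed models in place of its total, the ratio of 932 over HY under control was -1.21, past 2-fold, and the difference of responses was 5.14.

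CPH43 had another pattern. It read 1227 RPM in 932 heat and 297 RPM in 932 control, that is 7153 and 1823 tags. In HY it read 682 RPM in heat and 743 RPM in control. The 932 libraries were thus the highest and the lowest of the 4, with both HY libraries between them and close together.

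**Figure D1:**
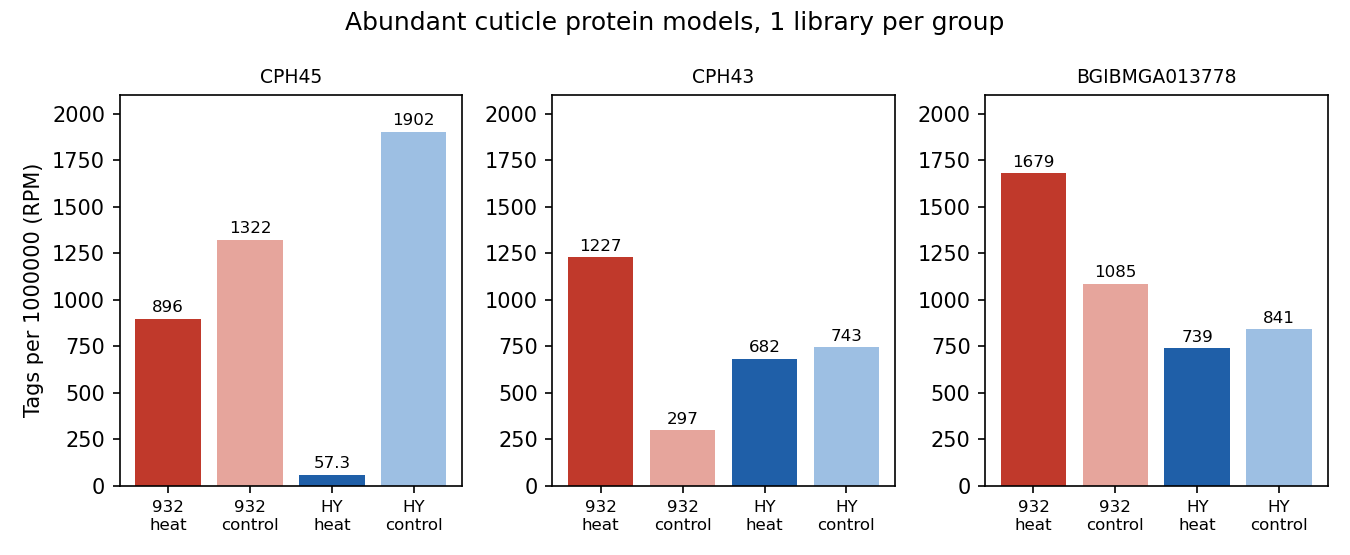
Levels in RPM (vertical axis) of CPH45, CPH43 and the related model BGIBMGA013778 in the 4 libraries, 1 bar per library. CPH45 is at 57.3 in HY heat and at least 896 elsewhere, while CPH43 is lowest in 932 control (297) and highest in 932 heat (1227).

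The log2 ratio of CPH43 for heat over control in 932 was 2.04 [1.97 to 2.12], or 4.12-fold, and 25 of 2708 genes had a ratio as high or higher. Of the 209 genes with at least 100 RPM in 1 of the 932 libraries, 2 had a ratio as high, CPH43 included. In HY the ratio was -0.12 [-0.19 to -0.06], which is -0.46 relative to the median gene. Under control CPH43 was lower in 932 than in HY, with a log2 ratio of -1.32 [-1.40 to -1.24]. After heat it was higher in 932, with a ratio of 0.85 [0.79 to 0.90], below 2-fold but 1.10 relative to the median gene. The difference of the heat responses was 2.17, with an approximate counting interval of 2.07 to 2.27, and 35 of 3214 genes had a difference as high or higher. Scaled to the sum of the listed models, the ratio under control was -2.01 and the difference 2.83.

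The shares of all genes past 2-fold give the setting for these calls. For heat over control in 932, 11.1% of genes were called higher, CPH43 among them, and 9.86% lower, with neither gene among them. For heat over control in HY, 14.1% were higher, with neither gene, and 4.59% lower, with CPH45. For 932 over HY under control 17.9% were higher, with neither gene, and 15.1% lower, with CPH43. Under heat 14.1% were higher in 932, with CPH45, and 20.8% lower, with neither gene. For the difference of the heat responses 8.09% of genes were at least 2-fold greater in 932, with both genes, and 18.8% at least 2-fold smaller. With 2 genes that were picked from this table, nothing is read from these counts about cuticle genes as a class.

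**Figure D2:**
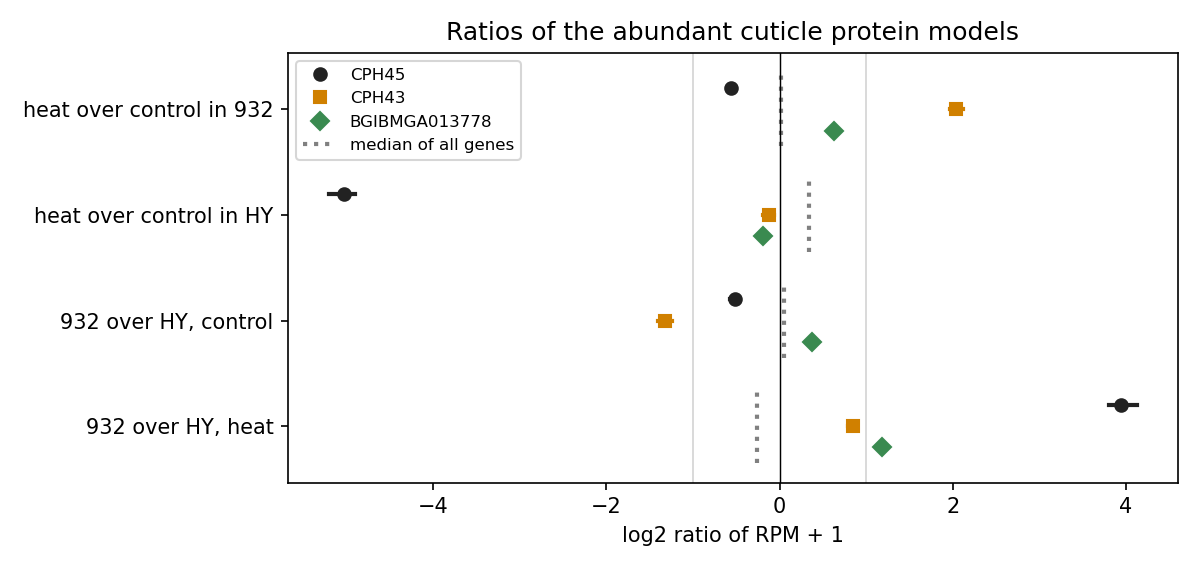
Log2 ratios of RPM + 1 (horizontal axis) of CPH45, CPH43 and BGIBMGA013778 in 4 comparisons (rows), with exact 95% counting intervals as bars and the median of all genes as a dotted line. The widest departures are CPH45 at -5.03 for heat over control in HY and 3.94 for 932 over HY under heat.

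A ratio of these genes within a library does not depend on how libraries are scaled against each other, and a change of that ratio between libraries does not depend on gene length. The log2 ratio of CPH45 over CPH43 tags was -0.45 in 932 heat and 2.15 in 932 control, a change of -2.61 with an approximate counting interval of -2.70 to -2.52. In HY it was -3.57 in heat and 1.36 in control, a change of -4.93 (-5.10 to -4.76). Heat libraries of both varieties thus held less CPH45 relative to CPH43 than their controls.

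BGIBMGA013778, the model left out of the pair, has the same best hit as CPH43, at the weaker expect value of 5.08e-14, and read 1679 RPM in 932 heat, 1085 RPM in 932 control, 739 RPM in HY heat and 841 RPM in HY control. It lay higher in both 932 libraries than in both HY libraries, unlike CPH43. Its log2 ratio of heat over control was 0.63 [0.58 to 0.67] in 932 and -0.19 [-0.25 to -0.13] in HY, below 2-fold in both. The log2 ratio of CPH43 over BGIBMGA013778 changed by 1.42 (1.33 to 1.50) between heat and control in 932 and by 0.06 (-0.02 to 0.15) in HY. In HY the interval of that change includes 0.

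Among the 4 models with the CPH43 hit, BGIBMGA005092 (expect value 3.51e-07) read at most 0.86 RPM, and BGIBMGA005295 (3.09e-06) was listed at 0 in every library. How tags that match several such models were assigned is not given in the sources used here, so the split between them is uncertain. Summed over the 4 models the levels were 2907 RPM in 932 heat, 1383 RPM in 932 control, 1421 RPM in HY heat and 1584 RPM in HY control. The sum gave a log2 ratio of 1.07 for heat over control in 932, against 2.04 for CPH43 alone. Under control the sum gave -0.20 for 932 over HY, against -1.32. The difference of responses was 1.23 for the sum, against 2.17.

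The other 16 models with a cuticle hit were near the detection limit. Together they summed to 8.2 RPM in 932 heat, 8.8 RPM in 932 control, 11.0 RPM in HY heat and 8.3 RPM in HY control, and 2 of them were listed at 0 in every library. Larval cuticle protein 1 (BGIBMGA000324), named for the larval cuticle, read 1.54 RPM in 932 heat, 2.61 RPM in 932 control, 4.66 RPM in HY heat and 3.45 RPM in HY control. Its counting interval included 0 for heat over control in both varieties, at -2.12 to 0.51 in 932 and -0.44 to 1.34 in HY. The RR-2 gene CPR127 (BGIBMGA000249) read 1.72 RPM in 932 heat, 3.09 RPM in 932 control, 2.16 RPM in HY heat and 1.38 RPM in HY control. Its intervals also included 0 for heat over control, at -2.12 to 0.33 in 932 and -0.73 to 2.13 in HY. These are the only models of the 16 that reached 3 RPM in a library.

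Of all 19 cuticle models, 7 passed the 1 RPM floor for heat over control in 932. Of these, 2 were called higher and none was called lower, where 11.1% of all genes were higher and 9.86% lower. Their median was 0.61, against 0.02 for all genes. The cuticle counts in 932 depended on 1 model at the floor. With median-of-ratios factors, or with the 20 most abundant genes left out of the totals, 2 were higher and 1 was lower, with a median of 0.02. The lower one, BGIBMGA005259, read 0.98 RPM (6 tags) in 932 control and was listed at 0 in 932 heat. It passed the floor only when scaled so. With 10 added the median was 0.09. In HY 6 cuticle models passed, and none was higher and 2 were lower, where 14.1% of all genes were higher and 4.59% lower. Their median was -0.16, against 0.34 for all genes. The second called gene in each variety, named here after its values were seen, was seen in 1 library alone. In 932 it was CPR70 (BGIBMGA010143), an RR-2 gene with 2.06 RPM (12 tags) in 932 heat and listed at 0 in the other 3. In HY it was the glycine-rich CPG42 (BGIBMGA011423), with 2.41 RPM (14 tags) in HY control and listed at 0 in the other 3. A value listed at 0 can stand for 0 tags or 1 tag, so no fold is given for either.

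For 932 over HY under control 6 cuticle models passed the floor, with none called higher and 2 lower, which were CPH43 and CPG42. Over all genes 17.9% were higher and 15.1% lower. The median of the cuticle models was -0.41, against 0.05 for all genes. Under heat 7 passed, with 3 higher and 1 lower, where 14.1% of all genes were higher and 20.8% lower. Their median was 0.85, against -0.26 for all genes. The cuticle models called higher were CPH45, BGIBMGA013778 and CPR70, and the lower one was larval cuticle protein 1. With median-of-ratios factors, or with ratios centred on the median gene, the split of the cuticle models under heat was 4 higher and 0 lower, with CPH43 past 2-fold. For the difference of the heat responses 8 models passed, of which 4 were at least 2-fold greater in 932 and none smaller, with a median of 1.22, where 8.09% of all genes were greater and 18.8% smaller. The 4 were CPH45, CPH43, CPR70 and CPG42, and the last pair, each seen in 1 library alone, rest on the added 1. CPH45 and CPH43 were chosen with earlier results known, so nothing is read from 4 of 8 against the share over all genes. Without CPH45 and CPH43, 2 of 6 were greater and none smaller, with a median of 0.66, and these are CPR70 and CPG42.

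Shares were taken of the tags of all listed cuticle models, and hold among these models only. CPH45 took 23.5% (exact 95% interval 23.0 to 24.1) of them in 932 heat and 48.7% (48.0 to 49.5) in 932 control. Its share was 3.85% (3.46 to 4.27) in HY heat and 54.4% (53.7 to 55.1) in HY control. CPH43 took 32.2% (31.6 to 32.8) in 932 heat and 10.9% (10.5 to 11.4) in 932 control. In HY its share was 45.8% (44.8 to 46.8) in heat and 21.3% (20.7 to 21.8) in control, although its own level differed little there. All cuticle models together summed to 3811 RPM in 932 heat, 2713 RPM in 932 control, 1489 RPM in HY heat and 3494 RPM in HY control. The total was thus higher after heat in 932 and lower after heat in HY.

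**Figure D3:**
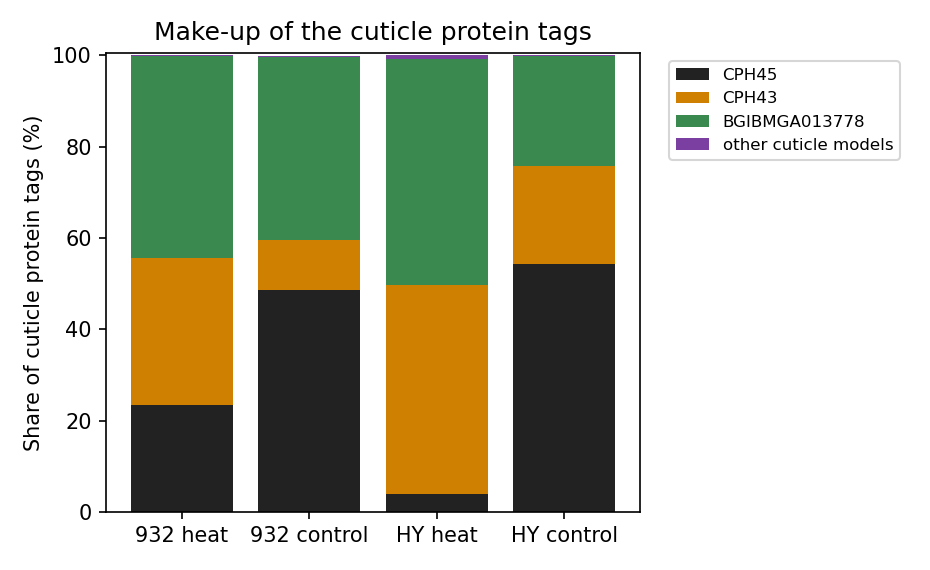
Share of the tags of all listed cuticle models (vertical axis, %) that fell to CPH45, CPH43, BGIBMGA013778 and the other 16 cuticle models in each library. CPH45 holds 3.85% in HY heat and 23.5% to 54.4% elsewhere, and the 16 others hold 0.738% at most.

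Genes of chitin metabolism, the partner of cuticle proteins, did not share the low HY heat level of CPH45. Of 11 models, 6 passed the floor in HY, where 3 were higher after heat, none was lower and the median was 1.01, where 14.1% of all genes were higher and 4.59% lower. In 932 none of 5 was higher and 1 was lower, with a median of -0.18, where 11.1% of all genes were higher and 9.86% lower. Chitin synthase, which polymerises chitin, read 239 RPM in 932 heat, 271 RPM in 932 control, 309 RPM in HY heat and 190 RPM in HY control for BGIBMGA002961. The model with the hit chitin synthase B (BGIBMGA002960), the midgut enzyme of insects, read 3.60 RPM in 932 heat, 11.4 RPM in 932 control, 8.82 RPM in HY heat and 3.10 RPM in HY control. Chitin deacetylase 5b (BGIBMGA013756), which removes acetyl groups from chitin, read 27.8 RPM in 932 heat, 38.4 RPM in 932 control, 46.5 RPM in HY heat and 14.5 RPM in HY control. A chitinase domain gene (BGIBMGA008900) read 18.5 RPM in 932 heat, 12.2 RPM in 932 control, 25.8 RPM in HY heat and 14.3 RPM in HY control.

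Of 9 peritrophic matrix genes 5 were higher after heat in HY and 2 lower, with a median of 1.67, where the shares over all genes were 14.1% and 4.59% and the median 0.34. One of the lower genes, the chitin binding domain 3 gene BGIBMGA009067, resembled CPH45 in HY but not in 932. It read 17.0 RPM in HY heat and 395 RPM in HY control, a log2 ratio of -4.46 [-4.84 to -4.25], but 4.46 RPM in 932 heat and 0.65 RPM in 932 control. The peritrophin type-A domain gene BGIBMGA008863 read 5.83 RPM in HY heat and was listed at 0 in the other 3 libraries. The intestinal mucin gene BGIBMGA001480, whose product forms part of the matrix, read 26.5 RPM in HY heat and 3.10 RPM in HY control, and a second mucin gene (BGIBMGA009641) read 5.49 RPM in HY heat and 0.86 RPM in HY control. In 932, 1 of 8 of these genes was higher and 4 were lower, with a median of -1.08, where 11.1% of all genes were higher and 9.86% lower.

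Of 6 cuticle tanning genes, enzymes and yellow proteins known for hardening and colouring cuticle, 3 passed the floor in HY and 2 in 932, and none was called in either. The most abundant, yellow-d (BGIBMGA007254), read 10.6 RPM in 932 heat, 14.8 RPM in 932 control, 6.16 RPM in HY heat and 7.76 RPM in HY control. Of 27 genes with moulting or juvenile hormone names, 14 passed in HY, with none higher and 2 lower. Over all genes the shares in HY were 14.1% and 4.59%. In 932, 17 passed, with 2 higher and 2 lower, where 11.1% of all genes were higher and 9.86% lower. An ecdysteroid 22-kinase (BGIBMGA011954), which inactivates moulting hormone by phosphorylation, was listed at 0 in HY heat and read 3.10 RPM in HY control. In 932 it read 1.89 RPM in heat and 2.28 RPM in control. The receptor of ecdysis triggering hormone (BGIBMGA002244) read 12.5 RPM in HY heat and 6.38 RPM in HY control, but 9.44 RPM in 932 heat and 19.1 RPM in 932 control. A juvenile hormone epoxide hydrolase (BGIBMGA013793), which breaks the hormone down, read 73.8 RPM in HY heat and 44.5 RPM in HY control. In 932 the hydrolase gene was lower after heat, at 113 RPM against 141 RPM in control. A cytosolic juvenile hormone binding protein (BGIBMGA006583) read 50.5 RPM in HY heat and 33.1 RPM in HY control. In 932 it read 30.7 RPM in heat and 41.7 RPM in control.

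The profile of CPH45 over the 4 libraries had no close match. Profiles were compared by the Euclidean distance of log2 values (RPM + 1), each centred on its own mean, over 1198 genes with at least 10 RPM in 1 library. The nearest genes to CPH45 were a carboxypeptidase (BGIBMGA004798) at a distance of 1.91, a model with a mosquito hit (BGIBMGA011712) at 1.93, an L-asparaginase (BGIBMGA007025) at 1.97, a trypsin (BGIBMGA001320) at 2.03 and a glutamate carboxypeptidase (BGIBMGA001274) at 2.05. No gene lay within a distance of 1. The median gene had its nearest neighbour at 0.13, and 4 genes, CPH45 included, had theirs as far away as CPH45 did. All 5 of its neighbours were lowest in HY heat. They were chosen for nearness to a profile with that feature, so it is not a separate result about them. The carboxypeptidase read 15.6 RPM in 932 heat, 10.4 RPM in 932 control, 1.5 RPM in HY heat and 15.4 RPM in HY control.

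CPH43 had 52 genes within a distance of 1. The nearest was Mod(mdg4)-heS00531 (BGIBMGA006426), named for a BTB-domain chromatin protein of Drosophila, at 0.32, with 50.8 RPM in 932 heat, 15.5 RPM in 932 control, 29.97 RPM in HY heat and 30.35 RPM in HY control. Next came GMCbeta2 (BGIBMGA013000), an oxidoreductase, at 0.47, the unnamed models BGIBMGA009286 at 0.49 and BGIBMGA014091 at 0.50, and cardiolipin synthase 1 (BGIBMGA005160), an enzyme that makes a mitochondrial lipid, at 0.59. The distance between CPH45 and CPH43 was 4.38, and that between CPH43 and BGIBMGA013778 was 1.42.

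**Figure D4:**
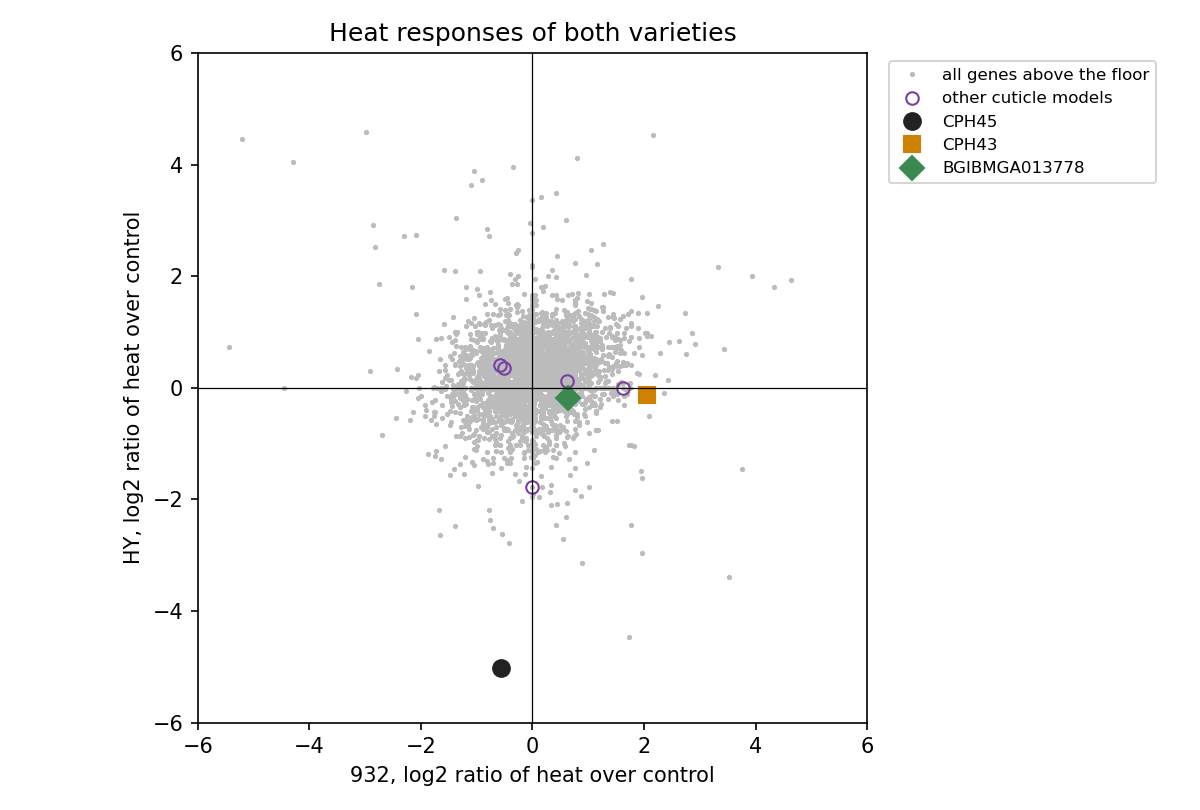
Log2 ratio of heat over control in HY (vertical axis) against that in 932 (horizontal axis) for 3214 genes with at least 1 RPM in 1 library, 1 grey dot per gene, with cuticle models marked. CPH45 lies at -0.56 and -5.03, below all other genes, and CPH43 lies at 2.04 and -0.12.

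The tissue label was checked with marker genes. Midgut epithelium markers (digestive enzymes, mucins, peritrophins and V-ATPase, 50 models) summed to 9654 RPM in 932 heat, 13916 RPM in 932 control, 7846 RPM in HY heat and 6604 RPM in HY control. For heat over control in 932, where CPH43 was 4.12-fold higher, 2 of 41 midgut markers were higher and 19 lower (median -0.91 against 0.02 for all genes). The shares over all genes were 11.1% higher and 9.86% lower. In HY, where CPH45 was low after heat, 8 of 40 markers were higher and 8 lower (median -0.25 against 0.34). There 14.1% of all genes were higher and 4.59% lower. For 932 over HY under control, 20 of 41 markers were higher and 2 lower, where 17.9% of all genes were higher and 15.1% lower. Under heat 11 of 41 markers were higher and 4 lower, where 14.1% of all genes were higher and 20.8% lower. The part of these marker shifts in the levels of CPH45 and CPH43 was not tested. The highest ratios in HY were those of intestinal lipase 6 (BGIBMGA002669), with 1075 RPM in HY heat and 60.7 RPM in HY control, and of a trypsin-like proteinase (BGIBMGA003605), with 768 RPM in HY heat and 57.4 RPM in HY control. Among the lowest, named after their values were seen, were the trypsin BGIBMGA001320, with 20.15 RPM in HY heat and 130.2 RPM in HY control, and aminopeptidase N-3 (BGIBMGA008061), with 50.8 RPM in HY heat and 150.4 RPM in HY control. In bulk tissue, fewer cells of a type and less RNA per cell cannot be told apart.

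A list of enzymes of chitin-lined epithelia such as epidermis and trachea does not mark those tissues alone, because it holds chitin synthase B, the midgut enzyme. Of its 11 models, 2 were listed at 0 in every library, and the list summed to 283 RPM in 932 heat, 337 RPM in 932 control, 407 RPM in HY heat and 219 RPM in HY control, most of it from chitin synthase BGIBMGA002961. Without chitin synthase, left out after the values were seen, the other 8 models summed to 38.4 RPM in 932 heat, 55.0 RPM in 932 control, 88.2 RPM in HY heat and 24.7 RPM in HY control. Integument esterase 2 (BGIBMGA009544) was listed at 0 in 932 heat and read 1.14 RPM in 932 control, 34.8 RPM in HY heat and 1.90 RPM in HY control. Together with chitin deacetylase 5b, at 46.5 RPM in HY heat, this esterase gene held most of the 88.2 RPM there. Integument esterase 2, named for its HY ratio, was thus high in the library where CPH45 was low. The sum of the 16 other cuticle models differed little between libraries.

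For heat over control in 932, 5 fat body markers passed the floor, with 3 higher and none lower. There 11.1% of all genes were higher and 9.86% lower. In HY 4 passed, with 1 higher and 2 lower, where 14.1% of all genes were higher and 4.59% lower. The 2 lower in HY, storage protein 2 and a 30-kDa lipoprotein, were higher after heat in 932. The log2 ratio was -0.56 for CPH45 in 932 and -0.12 for CPH43 in HY, so neither followed this pair in both varieties at 2-fold. Storage protein 2 (BGIBMGA009028) read 8.58 RPM in 932 heat, 1.47 RPM in 932 control, 0.33 RPM (2 tags) in HY heat and 9.31 RPM in HY control. The 30-kDa lipoprotein BGIBMGA004394 read 10.5 RPM in 932 heat and 9.48 RPM in HY control and was listed at 0 in the other pair. The 14 fat body models summed to 48.9 RPM in 932 heat, 29.0 RPM in 932 control, 35.5 RPM in HY heat and 37.4 RPM in HY control, and 4 of them, a vitellogenin and an arylphorin model included, were listed at 0 in every library. Apolipophorin III (BGIBMGA013108), a lipid carrier, read 23.2 RPM in 932 heat, 23.1 RPM in 932 control, 25.1 RPM in HY heat and 13.5 RPM in HY control, and the apolipophorin precursor (BGIBMGA013342) read 2.75, 3.42, 9.99 and 4.14 RPM in the same order.

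Muscle markers (26 models) summed to 963 RPM in 932 heat, 930 RPM in 932 control, 1186 RPM in HY heat and 837 RPM in HY control. In HY 2 of 18 were higher and none lower, where 14.1% of all genes were higher and 4.59% lower. The median of these markers in HY was 0.38, near the 0.34 of all genes. Muscle myosin heavy chain (BGIBMGA014227) read 263 RPM in HY heat and 153 RPM in HY control, miniparamyosin (BGIBMGA000613) 265 and 154 RPM, paramyosin (BGIBMGA000612) 7.33 and 3.97 RPM and a titin-like gene (BGIBMGA000624) 40.3 and 25.9 RPM. Haemocyte markers (9 models, 2 of them at 0 throughout) summed to 3.3 RPM in 932 heat, 4.2 RPM in 932 control, 93.4 RPM in HY heat and 12.1 RPM in HY control, most of it in HY from hemolin (BGIBMGA008736), an immune protein, at 87.1 RPM in HY heat and 10 RPM in HY control. Silk gland markers (2 models) summed to at most 0.7 RPM. The part of such tissues in the levels of CPH45 and CPH43 was not tested.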

How the data were processed

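Per the labels' protocols, midguts were frozen, RNA was taken up in Trizol and Illumina libraries were made by the standard procedure. The 4 libraries, 1 per group, were placed by their source labels. Aligner, counting tool and genome build are not given in the sources used here. The deposited values are called TPM in the file header but behave as RPM: in each library all values above 0 were whole numbers of tags within 0.0051 RPM at the totals given above (100% of them), against at most 54.0% at the best other totals tried. The lowest value above 0 was 2 tags, so a value of 0 can stand for 0 tags or 1 tag. A tag was worth 0.163 to 0.172 RPM.

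Ratios were computed as log2(RPM + 1), with a floor of 1 RPM in 1 library compared and a 2-fold rule. Exact conditional intervals (Clopper-Pearson, 95%) were computed from the recovered tags, and those of a difference of responses or of a change of a ratio within a library came from the delta method. Intervals cover counting error only, and tags need not be independent molecules. With 1 library per group no test was run. The calculations were tested on simulated data. Lists were matched on the name of the best hit, and every match was kept. Named were both members, cuticle models from 3 RPM on and the 5 genes nearest each member in profile. From each other list, up to 4 genes with the greatest absolute log2 ratio of heat over control in HY were named. These had at least 3 RPM in 1 of the HY libraries. Members, lists and comparisons were chosen with earlier results of these data known. A symbol in the RefSeq gene table of assembly ASM3026992v2 was taken through the accession of the hit. Coordinates are left out, since no build is stated. Alternatives were other scalings, added values, floors and fold rules. A scaling per 1000000 listed tags and the sum of the 4 models with the CPH43 hit were chosen later, with the data in view. The tools were scipy 1.17.1, pandas 2.3.3, numpy 2.4.6 and matplotlib 3.10.9 under Python 3.11.15.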

Additional observations from a re-analysis of the deposited data

Results flagged for a closer look

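CPH43 was higher after heat in 932 and slightly lower after heat in HY, so that its responses had opposite signs, with a difference of 2.17 on the log2 scale. BGIBMGA013778 also had responses of opposite sign, with a difference of 0.82. Neither difference was tested against a spread between replicates, because a response here is the ratio of 1 heat to 1 control library.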

How the results depend on the processing

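No paired analysis was possible because each group held 1 library, so that no group has a second replicate number to pair. No sign changed for either gene in 75 recomputed values, and 46 of them moved by less than counting error. For CPH45, heat over control in HY was -5.37 with median-of-ratios factors and also centred on the median gene, -4.83 with 10 added and -5.40 per 1000000 listed tags. In 932 it was -0.27 per 1000000 listed tags. For 932 over HY under control CPH45 gave -0.58 centred, -0.45 with the 20 most abundant genes left out of the totals and -1.21 per 1000000 listed tags, which is past 2-fold. Under heat it gave 4.21 with median-of-ratios factors, 4.20 centred and 3.75 with 10 added. The difference of its responses was 4.76, 4.78 and 4.27 under these, and 5.14 per 1000000 listed tags.

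For CPH43, heat over control in 932 was 2.34 per 1000000 listed tags and 1.07 with the 4 models summed. In HY it was -0.47 with median-of-ratios factors, -0.46 centred and -0.50 per 1000000 listed tags. For 932 over HY under control it was -2.01 per 1000000 listed tags and -0.20 summed, below 2-fold. Under heat it was 1.12 with median-of-ratios factors, 1.10 centred and 1.03 summed, each past 2-fold. The difference of responses was 2.47, 2.48, 2.83 per 1000000 listed tags and 1.23 summed.

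Of the cuticle models, 2 were called for heat in 932, and 1 with 10 added, with a floor of 10 RPM, with a 4-fold rule or without CPH45 and CPH43. The same held for heat in HY (2 and 1) and for 932 over HY under control (2 and 1), except that a 4-fold rule left 0 there. Under heat 4 were called, against 2 with 10 added or a floor of 10 RPM and 1 with a 4-fold rule. Of 40 recomputed counts 25 stayed within 1.5 times. Counts this small rest on the added value and on single models with few tags. Depth does not limit CPH45 or CPH43, each with at least 344 tags in every library, but limits the 16 low models, where 3 tags equal 0.489 to 0.517 RPM.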
